A study of Mus musculus with 10 samples.

Results

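The enzymes described here attach glutathione, glucuronic acid or sulfate to drugs, hormones, bile constituents and lipid peroxidation products, which makes these compounds water soluble and ready for export. They were taken as all genes whose symbol starts with Gst, Mgst, Ugt1, Ugt2, Ugt3 or Sult and that had a probe set, the group of short probes that reads a transcript on the array, assigned to that gene alone. Where a gene had several, the brightest on average across all 10 arrays stood for it (60 probe sets in all). This gave 47 genes of the 18193 named on the array: 24 glutathione transferases, 10 UDP-glucuronosyltransferases and 13 sulfotransferases. The rule used names and mean signal, and no comparison between diets, but the families were chosen with earlier results of these data known. The label fits the names except for Gstcd, which carries a glutathione transferase C-terminal domain and is not an established conjugating enzyme. No Ugt1 gene entered, because the 3 probe sets of the Ugt1 locus are each annotated to 8 genes.

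Livers came from lactating mice of the QSi5 strain, 1 array per mouse, 5 mice per diet. One group had eaten a diet of high glycaemic index (HGI) with glucose at 51.4% (w/w) and a gross energy of 15.6 MJ per kg, the other a diet of low glycaemic index (LGI) with the starch Hi-Maze at 51.4% and 16.3 MJ per kg. Feeding lasted from pregnancy to peak lactation in both groups, so all mice were lactating and no group ate ordinary chow. The labels give a positive energy balance for HGI and a negative one for LGI, so diet and energy balance cannot be told apart. The labels state no age and no pooling of animals.

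Glutathione transferases are soluble dimers grouped into alpha, mu, pi, theta and smaller classes, with separate membrane-bound microsomal forms. UDP-glucuronosyltransferases sit in the endoplasmic reticulum and use UDP-glucuronic acid, and the cytosolic sulfotransferases use the sulfate donor PAPS. In the liver many of these genes are induced together by the xenobiotic receptors CAR and PXR, by NRF2, the sensor of electrophiles, and by the aryl hydrocarbon receptor, while HNF1 and HNF4 factors maintain their basal hepatocyte expression.

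The genes lie in groups of neighbours. On mouse chromosome 3 the 7 mu genes follow each other, on chromosome 5 the 8 Ugt2 genes do, followed farther along by Sult1b1, Sult1d1 and Sult1e1, and on chromosome 10 the 4 theta genes do. The Ugt2b genes are neighbours of 1 class that had differences of 1 sign between the diets, none past the test, and the 100 bases before their starts are shown to set them side by side, from RefSeq (GRCm38.p6), all 5′ to 3′ on the strand of the gene. Capitals mark GTTA followed after any 4 bases by TTAAC, the half-sites and spacing bound by HNF1, a hepatocyte transcription factor. Ugt2a3, which lies among them, is shown as the member of the cluster without an exact match in this window. Its window holds gttaatagttaat, which differs from the pattern at the last base only, so a site there is not excluded.
Ugt2b34 (chr5:86906938-86907037, minus strand): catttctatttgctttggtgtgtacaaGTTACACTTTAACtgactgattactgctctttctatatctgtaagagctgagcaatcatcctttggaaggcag
Ugt2b1 (chr5:86926504-86926603, minus strand): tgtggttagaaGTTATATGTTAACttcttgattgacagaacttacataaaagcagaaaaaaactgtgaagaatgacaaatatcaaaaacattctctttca
Ugt2b35 (chr5:87000760-87000859, plus strand): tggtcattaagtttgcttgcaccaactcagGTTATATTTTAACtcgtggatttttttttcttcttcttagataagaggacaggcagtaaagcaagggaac
Ugt2b36 (chr5:87092556-87092655, minus strand): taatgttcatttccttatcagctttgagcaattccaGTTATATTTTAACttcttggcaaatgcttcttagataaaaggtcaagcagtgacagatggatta
Ugt2b5 (chr5:87140341-87140440, minus strand): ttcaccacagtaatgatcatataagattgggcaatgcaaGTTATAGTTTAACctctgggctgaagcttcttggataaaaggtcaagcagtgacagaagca
Ugt2b37 (chr5:87254789-87254888, minus strand): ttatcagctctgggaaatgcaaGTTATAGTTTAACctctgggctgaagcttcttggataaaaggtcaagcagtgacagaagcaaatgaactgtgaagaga
Ugt2a3 (chr5:87337196-87337295, minus strand): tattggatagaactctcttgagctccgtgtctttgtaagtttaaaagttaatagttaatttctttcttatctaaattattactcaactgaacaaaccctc
Ugt2b38 (chr5:87424204-87424303, minus strand): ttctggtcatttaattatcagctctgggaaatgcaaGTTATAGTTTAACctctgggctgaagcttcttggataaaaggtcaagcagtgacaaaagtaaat

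All 7 Ugt2b genes held the match, with its first base between positions -89 and -61 from the start. Searched on both strands over windows from 250 bases before to 50 after the start, a gene with several starts counting once, it occurred in 60 of 27025 genes with a window (0.222%) and in 8 of the 42 members with one, the eighth being Ugt3a1. The motif was chosen after the values and the sequences had been seen, and the Ugt2b genes are copies of each other, so their matches are not separate events. The half-site of nuclear receptors, AGGTCA, occurred in 5 of the 7 Ugt2b windows and in 18.1% of all genes. It overlapped the HNF1-type match in none of the 7.

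Gsta2 is the 1 member that passed the test between diets, and its window is shown because it holds no match to TGACNNNGC, the core of the antioxidant response element that NRF2 binds. Capitals mark GCGTG, the core bound by the aryl hydrocarbon receptor, at positions -7 to -3 from the start that the promoter table gives. That start lies 47 bases inside the annotated extent of Gsta2, so the match is upstream of this start but within the gene as annotated. The tabled start of the 8 Ugt2 genes printed above is the end of the annotated gene, and in 17 of 42 members all tabled starts lie inside it.
Gsta2 (chr9:78347146-78347245, minus strand): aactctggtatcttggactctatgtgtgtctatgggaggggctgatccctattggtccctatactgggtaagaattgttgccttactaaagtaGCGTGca
GCGTG occurred in 10 of 42 members and 35.2% of all genes. TGACNNNGC occurred in 4 of 42 members (Gsta3, Gstm5, Gstm7 and Mgst1) and 3781 of 27025 genes, again on both strands. A missing match says only that these letters are not in the window.

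Across the 47 genes, conjugating enzymes stood lower in HGI than in LGI livers more often than genes at large. Gsta2 alone passed the test over all probe sets (limma, adjusted p under 0.05), where 0.0440% of all genes passed lower in HGI and 0.0644% of all probe sets passed in either direction. At an unadjusted p under 0.05, 21 of the 47 stood lower (44.7%), against 6.23% of all genes, and 1 stood higher, against 3.07%. The median difference, HGI minus LGI on the log2 scale, was -0.23 over the 47 genes and -0.03 over all genes, and 37 of the 47 lay below 0 (58.2% of all genes did). The 5 mice of each diet did not overlap at 5 members, all lower in HGI, against 1.67% of all genes. At 0 members did they separate with HGI higher, against 0.500% of all genes. The shares describe the list and were not tested, since it was chosen with earlier results of these data known. Its genes also come from the same 10 livers, and near copies can share probes.

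**Figure D1:**
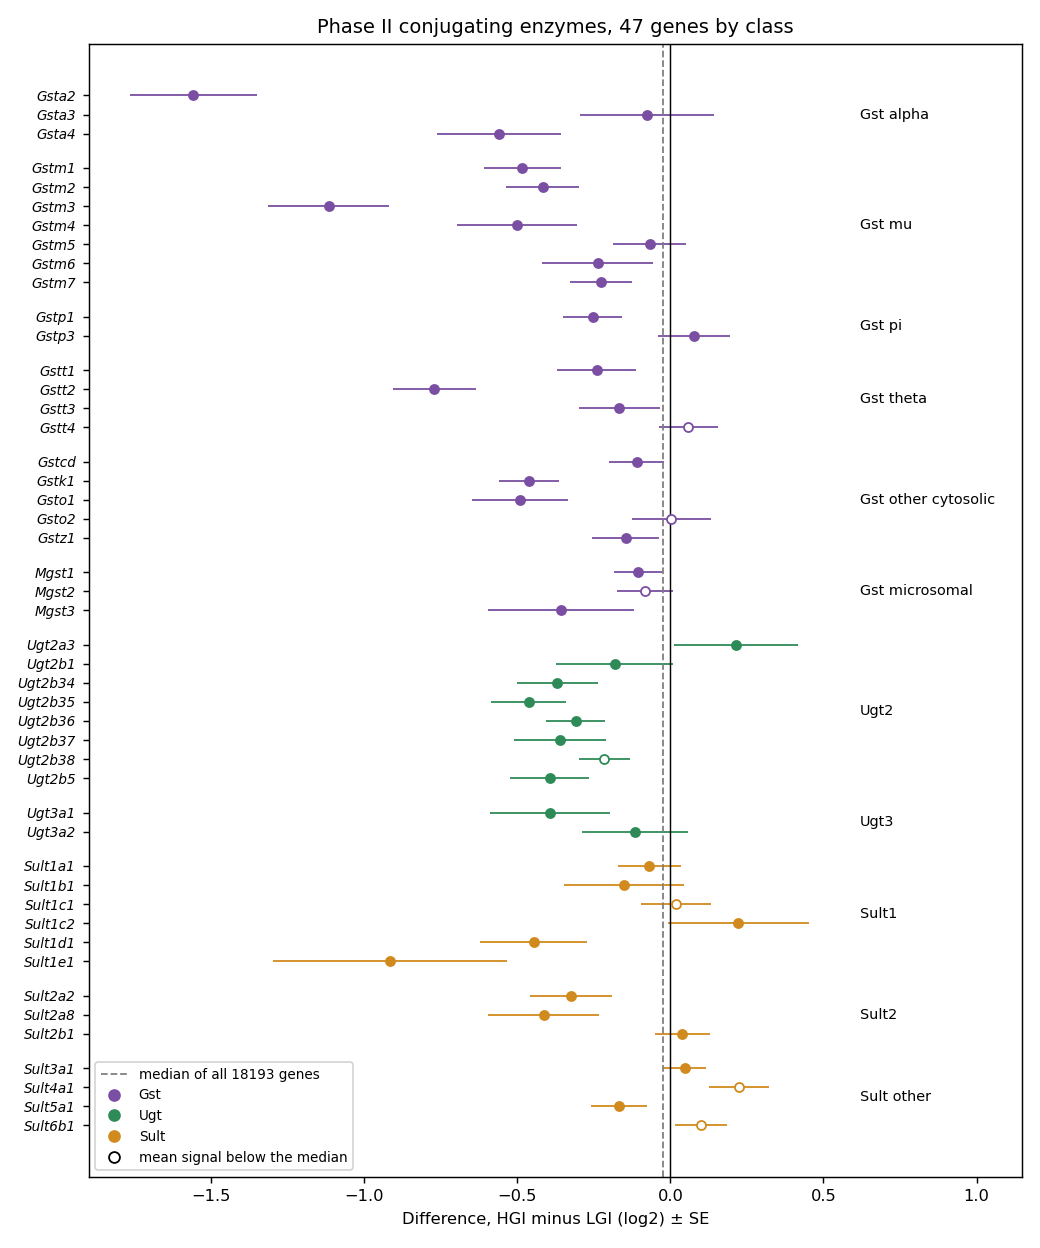
Difference between diets (HGI minus LGI, log2, ± SE, n = 5 mice per diet) for each of the 47 genes, ordered by enzyme class; open circles have a mean signal below the median of all probe sets. Most points lie left of the dashed median of all genes, Gsta2 (-1.56) and Gstm3 (-1.12) farthest, while Sult genes spread over both sides of 0.

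The families were unequal in size and in how many members stood lower. Of the 24 glutathione transferases 21 lay below 0, with a median of -0.24, and 11 had an unadjusted p under 0.05, all lower. Of the 10 UDP-glucuronosyltransferases 9 lay below 0, with a median of -0.34, and 6 had such a p, all lower. Sulfotransferases were mixed: 7 of 13 lay below 0, the median was -0.07, and 4 stood lower and 1 higher at that p. Of the 47, 7 had a mean signal below the median of all probe sets (3.94 log2), namely Gsto2, Gstt4, Mgst2, Sult1c1, Sult4a1, Sult6b1 and Ugt2b38, and their values are close to background. Among the other 40 the medians were -0.25 for Gst, -0.36 for Ugt and -0.16 for Sult, and 20 stood lower and 0 higher at an unadjusted p under 0.05 (7.72% and 3.85% of all genes of such brightness). Of these brighter genes 20 of 21 Gst, 8 of 9 Ugt and 7 of 10 Sult lay below 0 (7063 of 12117 among all genes of such brightness). Differences between families were not tested.

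Arrays HGI 1 and LGI 4 stood apart from their groups, HGI 1 by the narrowest spread of values (SD 2.16 log2 against 2.26 to 2.31 in the others) and both by their correlation with their own group (0.989 and 0.988, against 0.991 to 0.993). They bear on these enzymes. As the deviation of each gene from its mean over the arrays, the median over the 40 brighter members was -0.39 in HGI 1, -0.01 in HGI 2, 0.03 in HGI 3, -0.04 in HGI 4 and -0.28 in HGI 5. It was 0.26 in LGI 1, 0.19 in LGI 2, 0.26 in LGI 3, -0.22 in LGI 4 and 0.16 in LGI 5. So 4 LGI livers lay above all HGI livers, and LGI 4 lay inside the HGI range. Without HGI 1 the median difference over the 47 genes was -0.16, without LGI 4 it was -0.31, and without both it was -0.27, with 27 members at an unadjusted p under 0.05 against 22 with all arrays. The count was 13 without HGI 5 and 14 without LGI 3. The share of all genes at that p was not taken for the fits without arrays, so these counts have no background beside them. Leaving out 1 array at a time moved the difference by over 1.5 times or turned its sign at 24 of the 25 members with an unadjusted p of 0.05 or more, all but Ugt3a1. Among the 22 with a lower p it did so at Sult1e1 alone.

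**Figure D2:**
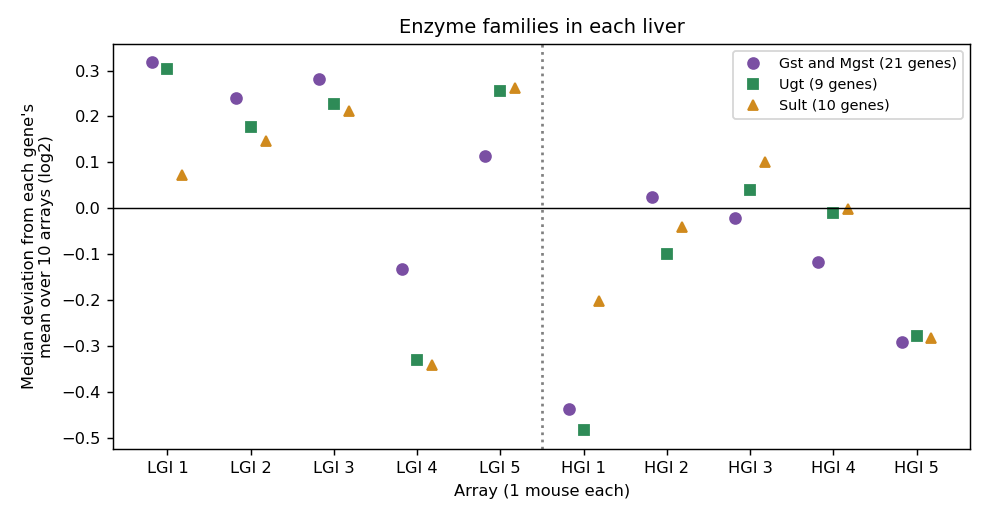
Median deviation of the brighter members of each family from their gene's mean over the 10 arrays (log2), for each liver. LGI 1, 2, 3 and 5 lie above 0 in all families, while LGI 4 lies at -0.13 for Gst and -0.33 for Ugt, inside the HGI range, and at -0.34 for Sult, below every HGI liver.

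Among alpha-class transferases, which conjugate lipid aldehydes and also reduce peroxides, Gsta2 fell and Gsta3 and Gsta4 did not pass. Gsta2, an inducible alpha form, read 7.72, 8.03, 8.18, 8.13 and 8.11 log2 in HGI 1 to 5 and 9.88, 10.01, 9.72, 8.67 and 9.67 in LGI 1 to 5. Even the lowest LGI liver, LGI 4, lay above the highest HGI liver. Gsta2 was 2.94-fold lower in HGI (-1.56 ± 0.21, log2 difference ± SE, limma adjusted p = 0.0211), with the larger spread on the LGI side (SD 0.53 against 0.18, n = 5 each). The call was lost without HGI 5 (adjusted p = 0.0540), LGI 2 (0.0674), LGI 3 (0.0757) or LGI 5 (0.0868), while the difference kept between -1.79 and -1.45. Over all probe sets 7, 5, 5 and 5 passed in those fits, against 29 with all arrays. A further probe set, annotated to Gsta2 together with Gsta1 and a predicted gene and so outside the rule, stood at -1.50 (adjusted p = 0.102). There the diets overlapped, since LGI 4 read 7.42 log2 and HGI 2 read 7.52.

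Gsta4, the alpha form with a preference for 4-hydroxynonenal, a product of lipid peroxidation, stood at -0.56 (adjusted p = 0.522). Its 4 higher LGI livers read 9.98 to 10.17 log2, and LGI 4 lay inside the HGI range of 8.87 to 9.51. Without LGI 4 the difference was -0.77 and passed. Gsta3, the constitutive alpha form, stood at -0.08 (adjusted p = 0.969), and its sign turned with single arrays (-0.28 without LGI 4, 0.08 without HGI 1). The second Gsta3 probe set stood at -0.34 (adjusted p = 0.803).

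Mu-class transferases, which act on epoxides and aromatic electrophiles, all lay below 0, with a median of -0.42 over 7 genes. None passed the test, and 5 had an unadjusted p under 0.05 (6.23% of all genes did on this side). In their order along chromosome 3 the differences were -0.07 for Gstm5, -0.23 for Gstm7, -0.24 for Gstm6, -1.12 for Gstm3, -0.42 for Gstm2, -0.48 for Gstm1 and -0.50 for Gstm4. The end of the cluster that holds Gstm3, Gstm2, Gstm1 and Gstm4 thus had the values farther from 0. Mu genes are close in sequence, and the probe sets used for Gstm1 and Gstm3 carry the maker's suffixes x and s for probes that can match several transcripts, so signal may be shared between them.

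Gstm3 read 9.81, 10.73, 10.56, 10.58 and 10.24 log2 in HGI 1 to 5 and 11.28, 11.63, 11.36, 12.12 and 11.11 in LGI 1 to 5. The diets did not overlap, and LGI 4 was the highest of all, the reverse of its place in Gsta2. The difference was -1.12 ± 0.20, or 2.17-fold lower (adjusted p = 0.0711), and -1.26 at the other Gstm3 probe set, whose groups did not overlap either (adjusted p = 0.137). Without HGI 1 and LGI 4 the difference was -0.82 and passed (adjusted p = 0.0430).

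Gstm1, an abundant mu form of mouse liver, read 11.92, 12.50, 12.22, 12.00 and 12.02 log2 in HGI 1 to 5 and 12.87, 12.74, 12.67, 12.41 and 12.40 in LGI 1 to 5. Only HGI 2 reached into the LGI range. All 4 Gstm1 probe sets stood lower, by 0.31 to 0.51 log2, with unadjusted p-values of 0.00200 to 0.0176, and the one used stood at -0.48 ± 0.13 (adjusted p = 0.288). Gstm2 read 8.39, 8.76, 8.57, 8.68 and 8.35 in HGI 1 to 5 and 9.07, 8.95, 9.11, 9.12 and 8.58 in LGI 1 to 5, so that LGI 5 lay inside the HGI range (-0.42 ± 0.12, adjusted p = 0.372). The second Gstm7 probe set stood at 0.01 (adjusted p = 0.994), and Gstm5 lay at or just above 0 without HGI 1 or without LGI 3.

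Theta-class transferases, which handle small halogenated compounds, were led by Gstt2. It read 8.81, 9.41, 9.69, 9.45 and 9.27 log2 in HGI 1 to 5 and 10.07, 10.25, 9.95, 10.13 and 10.10 in LGI 1 to 5. The diets did not overlap, and LGI 4 lay with its group here. Gstt2 stood at -0.77 ± 0.14, or 1.71-fold lower (adjusted p = 0.0700). It passed without HGI 1 (-0.64, adjusted p = 0.0466) and without HGI 3 (-0.86, adjusted p = 0.0378). Its neighbours on chromosome 10 stood at -0.17 (Gstt3) and -0.24 (Gstt1), adjusted p = 0.838 and 0.721, with -0.30 for Gstt3 without LGI 4 and -0.14 for Gstt1 without HGI 1. Gstt4, with a mean just under the median of all probe sets, stood at 0.06 (adjusted p = 0.943).

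**Figure D3:**
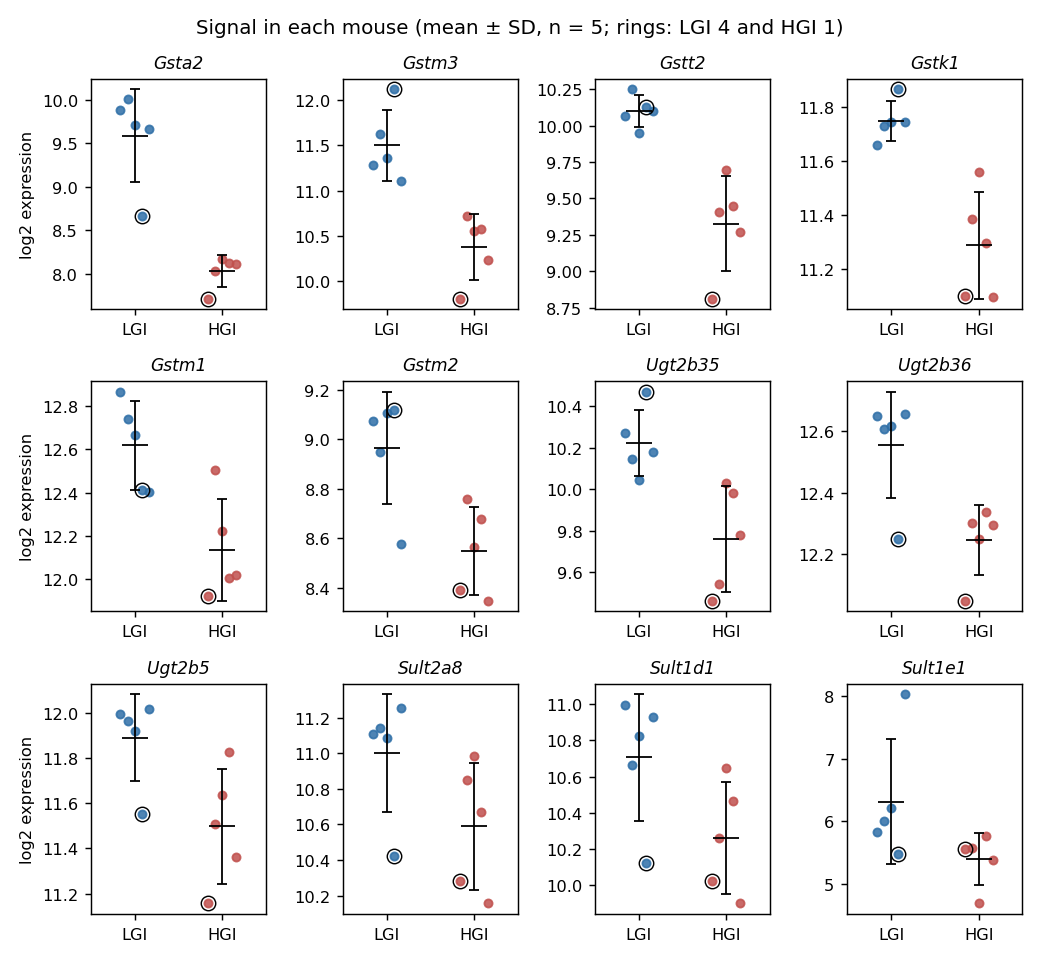
Signal in each mouse (log2, separate scale per gene) for 12 enzymes, with the mean and SD of 5 mice per diet; rings mark LGI 4 and HGI 1. Gsta2, Gstm3, Gstt2, Gstk1 and Ugt2b35 separate the diets, and LGI 4 is lowest of its group in Gsta2, Ugt2b36, Ugt2b5, Sult2a8, Sult1d1 and Sult1e1 but highest in Gstm3, Gstk1, Gstm2 and Ugt2b35.

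The remaining cytosolic forms included a further gene without overlap. Gstk1, the kappa form of mitochondria and peroxisomes, read 11.10, 11.38, 11.56, 11.30 and 11.10 log2 in HGI 1 to 5 and 11.66, 11.73, 11.74, 11.86 and 11.74 in LGI 1 to 5. Every LGI liver was higher than every HGI liver, and the difference was -0.46 ± 0.10 (adjusted p = 0.154). Gsto1, an omega form with thioltransferase activity, read 9.42, 10.20, 10.33, 9.99 and 9.72 in HGI 1 to 5 and 10.71, 10.45, 10.44, 10.18 and 10.33 in LGI 1 to 5. It stood at -0.49 ± 0.16 (adjusted p = 0.459), but its other probe set stood at -0.02 (adjusted p = 0.991), so its probe sets disagree.

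Gstp1, a pi form, read 11.87, 12.20, 12.27, 12.14 and 12.40 log2 in HGI 1 to 5 and 12.48, 12.45, 12.49, 12.36 and 12.37 in LGI 1 to 5, a difference of -0.25 ± 0.10 (adjusted p = 0.554). Only HGI 5 reached the LGI values, and Gstp3, its neighbour in name, stood at 0.08, or -0.04 without LGI 4. Gstz1, which also isomerizes maleylacetoacetate in tyrosine breakdown, stood at -0.15 (adjusted p = 0.824) and Gstcd at -0.11 (adjusted p = 0.844).

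Of the microsomal transferases, 0 of 3 had an unadjusted p under 0.05. Mgst1, the main membrane-bound form of liver, stood at -0.10 ± 0.08 (adjusted p = 0.829), with all 10 livers between 13.17 and 13.55 log2. Mgst3, a form with peroxidase activity, read 6.49, 7.45, 7.53, 7.07 and 6.99 in HGI 1 to 5 and 8.05, 7.48, 7.75, 6.69 and 7.35 in LGI 1 to 5. The diets overlapped widely, and the difference of -0.36 ± 0.24 (adjusted p = 0.797) was -0.20 without HGI 1 and -0.55 without LGI 4.

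UDP-glucuronosyltransferases of the Ugt2b group, which conjugate steroids, bile acids and many drugs, lay below 0 at all 7 genes. In their order along chromosome 5 the differences were -0.37 for Ugt2b34, -0.18 for Ugt2b1, -0.46 for Ugt2b35, -0.31 for Ugt2b36, -0.39 for Ugt2b5, -0.36 for Ugt2b37 and -0.21 for Ugt2b38, with Ugt2a3 at 0.21 between the last 2. None passed the test (limma, smallest adjusted p = 0.304), and 6 of the 7, all but Ugt2b1, had an unadjusted p under 0.05 (6.23% of all genes did on this side). Among these, Ugt2b38 had a mean signal below the median of all probe sets. The Ugt2b34 probe set carries the suffix s, so its signal may be shared. The other Ugt2b34 probe set stood at -0.27 (limma, unadjusted p = 0.0955). Ugt2b1 stood at -0.36 without LGI 4 and at -0.08 without HGI 1. Without LGI 4 the Ugt2a3 difference was -0.02, since that liver read 9.45 log2 against 10.50 to 10.68 in the other LGI livers. The matches printed above therefore do not come with a settled contrast between Ugt2a3 and its neighbours.

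Ugt2b35 read 9.46, 9.54, 10.03, 9.98 and 9.78 log2 in HGI 1 to 5 and 10.27, 10.15, 10.05, 10.47 and 10.18 in LGI 1 to 5, without overlap by a narrow margin (-0.46 ± 0.12, adjusted p = 0.304). Ugt2b36 read 12.05, 12.30, 12.25, 12.34 and 12.30 in HGI 1 to 5 and 12.65, 12.61, 12.62, 12.25 and 12.66 in LGI 1 to 5. In this gene 4 LGI livers lay at 12.61 to 12.66, above all HGI livers, and LGI 4 lay below 4 of the 5 HGI livers (-0.31 ± 0.10, adjusted p = 0.444). Ugt2b5 read 11.16, 11.51, 11.64, 11.83 and 11.36 in HGI 1 to 5 and 12.00, 11.97, 11.92, 11.55 and 12.02 in LGI 1 to 5, again with LGI 4 alone in the HGI range (-0.39 ± 0.13, adjusted p = 0.469).

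Ugt3 enzymes use sugars other than glucuronic acid as donors. Ugt3a1, which transfers N-acetylglucosamine, read 8.16, 8.84, 8.74, 8.66 and 8.17 log2 in HGI 1 to 5 and 9.31, 9.06, 9.11, 8.23 and 8.83 in LGI 1 to 5. It stood at -0.39 ± 0.19 (adjusted p = 0.697), and its second probe set at -0.30. Ugt3a2 stood at -0.12 (adjusted p = 0.932), at -0.28 without LGI 4 and at -0.02 without LGI 1. The 3 probe sets annotated jointly to 8 genes of the Ugt1 locus, which includes the bilirubin-conjugating enzyme, stood at -0.03, -0.08 and -0.01 (adjusted p = 0.963, 0.883 and 0.993). Their means were 12.50 to 12.83 log2 in the diets, and a change in 1 of the genes they share could be hidden in them.

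Sulfotransferases lay on both sides of 0. Sult1e1, the oestrogen sulfotransferase, read 5.55, 5.57, 4.69, 5.77 and 5.39 log2 in HGI 1 to 5 and 5.83, 6.01, 6.22, 5.47 and 8.03 in LGI 1 to 5. LGI 5 was far above the other livers. The difference was -0.92 ± 0.38 (adjusted p = 0.607), and -0.49 without LGI 5. Sult1d1, which acts on catecholamines, stood at -0.45 (adjusted p = 0.570) and at -0.39 at its second probe set, with LGI 4 at 10.12 and the other LGI livers at 10.66 to 10.99. Sult1a1, the phenol sulfotransferase, stood at -0.07 (adjusted p = 0.933), and Sult1b1 and Sult1c2 at -0.15 and 0.22. Without LGI 4 the values were -0.37 and -0.03, and without LGI 3 that of Sult1b1 was -0.06.

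Among Sult2 forms, which sulfate steroids and bile acids, Sult2a8 read 10.28, 10.85, 10.99, 10.67 and 10.16 log2 in HGI 1 to 5 and 11.11, 11.14, 11.09, 10.42 and 11.25 in LGI 1 to 5. Again 4 LGI livers lay above every HGI liver (-0.41 ± 0.18, adjusted p = 0.638, and -0.56 without LGI 4). Sult2a2 stood at -0.32 (adjusted p = 0.600) and Sult2b1, a cholesterol sulfotransferase, at 0.04 (adjusted p = 0.962). Sult5a1 read 7.25, 7.44, 7.55, 7.42 and 7.14 in HGI 1 to 5 and 7.47, 7.59, 7.40, 7.56 and 7.61 in LGI 1 to 5, with overlapping diets (-0.17 ± 0.09, adjusted p = 0.730). Sult3a1 had a difference of 0.05 ± 0.07 (adjusted p = 0.931) with all livers between 13.15 and 13.37. Sult4a1 was the 1 member higher at an unadjusted p under 0.05 (0.22, adjusted p = 0.636), and it was dim in both diets. The family's median was -0.04 without HGI 1 and -0.16 without LGI 4.

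Genes that supply the cosubstrates did not pass the test (limma over all probe sets). The counts of this and the following lists at an unadjusted p under 0.05 stand against 6.23% of all genes lower and 3.07% higher, and those without overlap against 1.67% of all genes lower. For UDP-glucuronic acid, 2 of 6 genes had an unadjusted p under 0.05, both lower: Ugdh, UDP-glucose dehydrogenase, which makes it, and Slc35d1, its carrier into the endoplasmic reticulum (-0.30, adjusted p = 0.657). Ugdh read 9.02, 9.66, 9.78, 9.72 and 9.54 log2 in HGI 1 to 5 and 10.29, 10.25, 10.23, 10.23 and 10.08 in LGI 1 to 5. The diets did not overlap, LGI 4 lay with its group, and the difference was -0.67 ± 0.13 (adjusted p = 0.102).

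For glutathione, 2 of 9 genes had an unadjusted p under 0.05, both lower: Gclm, the modifier subunit of the rate-limiting ligase (-0.30, adjusted p = 0.459, no overlap), and Ggt6, of the gamma-glutamyltransferase family (-0.71, adjusted p = 0.262). Gclc, the catalytic subunit of the ligase, stood at 0.03 (adjusted p = 0.984). Of 8 genes for the supply or removal of sulfate groups, 0 passed and 0 had an unadjusted p under 0.05, with a median of -0.03. Papss2, the PAPS synthase of liver, stood at -0.05 (adjusted p = 0.971).

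Of 7 transporters that carry conjugates out of cells, 0 passed, and 3 stood lower at an unadjusted p under 0.05, these also without overlap between the diets (6.23% and 1.67% of all genes). All 7 lay below 0, with a median of -0.38, or -0.22 without HGI 1, but Abcc1 and Abcc6 lay so close to it that Abcc6 turned with quantile normalization again and both turned without HGI 1. Abcc3, a basolateral exporter of glucuronides into blood, read 6.71, 8.88, 8.82, 7.57 and 7.13 log2 in HGI 1 to 5 and 9.65, 9.37, 8.94, 9.57 and 9.24 in LGI 1 to 5 (-1.53 ± 0.36, adjusted p = 0.232). HGI 2 and HGI 3 came close to the LGI livers and the other HGI livers lay far below. Abcc4, another basolateral exporter, read 4.39, 4.30, 5.52, 4.38 and 4.91 in HGI 1 to 5 and 5.67, 5.98, 5.63, 6.01 and 6.55 in LGI 1 to 5 (-1.27 ± 0.23, adjusted p = 0.0810). Abcg2, which exports sulfates into bile, stood at -0.54 ± 0.11 (adjusted p = 0.137). Abcc2, the canalicular exporter of glutathione and glucuronide conjugates, stood at -0.18 (adjusted p = 0.821).

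**Figure D4:**
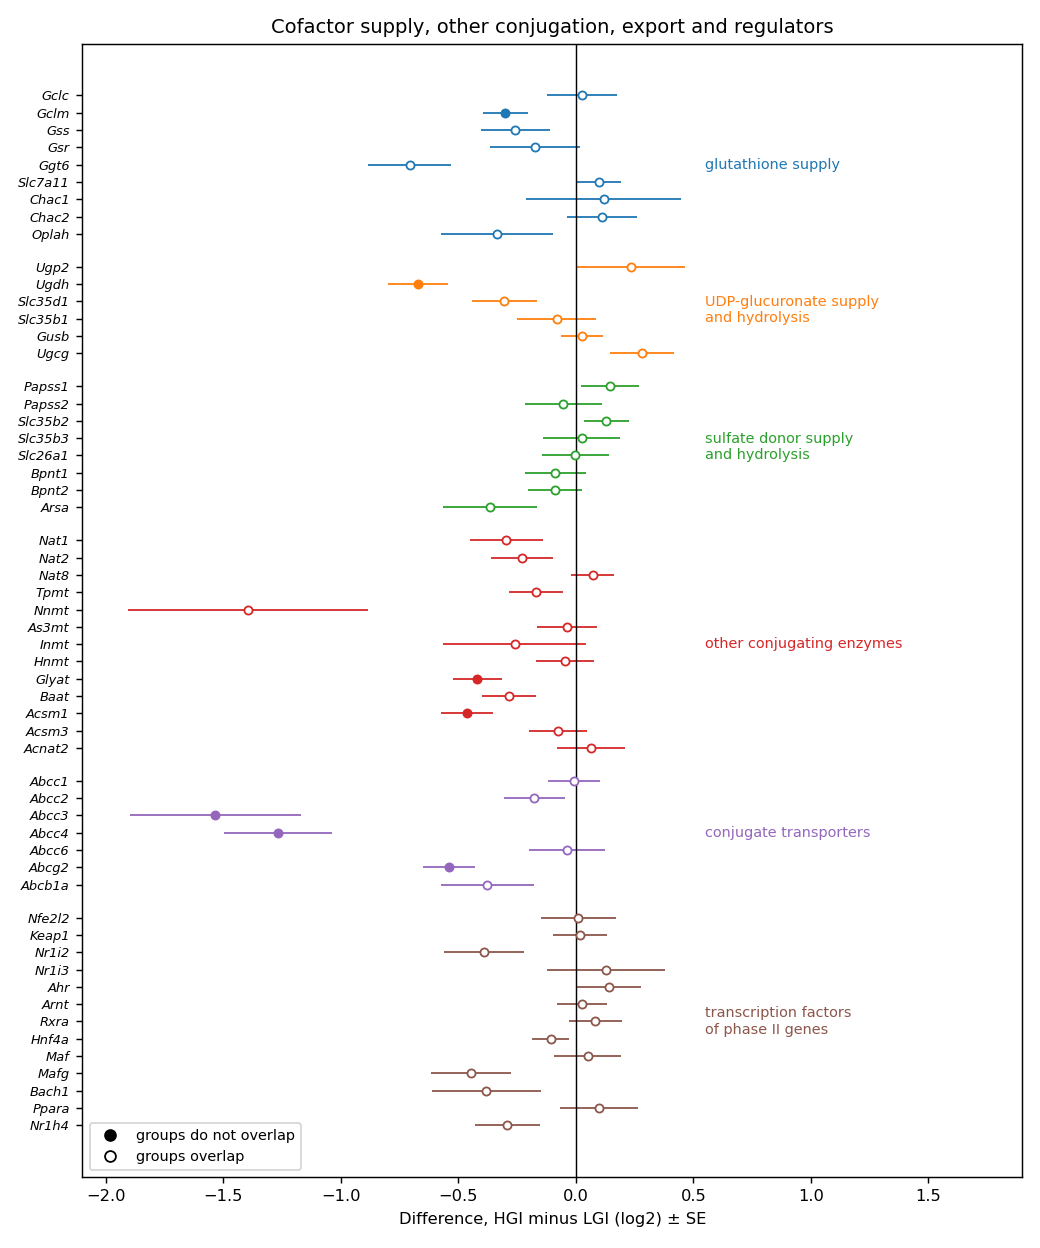
Difference between diets (HGI minus LGI, log2, ± SE, n = 5 mice per diet) for genes of cosubstrate supply, other conjugation, export and regulation; filled circles have no overlap between diets. Ugdh, Abcc3, Abcc4 and Abcg2 lie left of 0 without overlap, and Nfe2l2 and Keap1 lie at 0.01 and 0.02.

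Of 13 other conjugating enzymes, 0 passed and 4 stood lower at an unadjusted p under 0.05. These were Glyat, which joins glycine to benzoate and similar acids (-0.42, adjusted p = 0.247), Acsm1, which activates such acids (-0.46, adjusted p = 0.235), Baat, the bile acid conjugating enzyme (-0.28, adjusted p = 0.580), and Nnmt, nicotinamide N-methyltransferase (-1.40, adjusted p = 0.532). Glyat and Acsm1 had no overlap between diets. Nnmt ranged from 7.87 to 10.67 log2 among HGI livers and from 9.53 to 12.05 among LGI livers.

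Transcripts of the transcription factors behind these genes lay on both sides of 0. Of 13, 0 passed and 2 stood lower at an unadjusted p under 0.05: Nr1i2, which encodes PXR (-0.39 ± 0.17, adjusted p = 0.627), and Mafg, a partner of NRF2 (-0.45 ± 0.17, adjusted p = 0.549). Nfe2l2, which encodes NRF2, stood at 0.01 ± 0.16, its inhibitor Keap1 at 0.02 ± 0.12 and Nr1i3, which encodes CAR, at 0.13 ± 0.25 (adjusted p = 0.995, 0.987 and 0.953). Transcript levels do not show the activity of these factors.

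Markers of hepatocytes, the cells that hold most of these enzymes, were bright in every liver and had a median difference of 0.02 over 6 genes, 0 of which passed or had an unadjusted p under 0.05. Their mean level ran from 13.88 to 13.98 log2 in HGI and from 13.72 to 14.03 in LGI. The median joins both signs: 4 of the 6 lay above 0, and Tat and Cyp2e1 stood at -0.26 and -0.15. Serpina1c stood at 0.20 with no overlap between the diets, HGI higher (0.500% of all genes). All 10 markers of Kupffer cells lay above 0 (median 0.27), with mean levels of 7.24 to 8.06 in HGI and 6.94 to 7.68 in LGI. All 9 endothelial markers did too (median 0.20, levels of 6.49 to 7.12 against 6.35 to 6.69). At an unadjusted p under 0.05, 1 Kupffer cell marker and 2 endothelial markers stood higher (3.07% of all genes). Pericentral hepatocyte markers, of the zone where many conjugating enzymes are highest, had a median of -0.04 over 7 genes, which joins unlike values. At an unadjusted p under 0.05, 2 stood lower and 1 higher. Oat stood at -1.10 (adjusted p = 0.0575) with no overlap between the diets (1.67% of all genes lower), Slc1a2 at -0.46 and Glul at 0.27. Periportal markers had a median of -0.23 over 6 genes, 3 lower and 1 higher at an unadjusted p under 0.05. The lower ones were Hal (-0.47), Cyp2f2 (-0.28) and Ctsc (-0.61, no overlap). The higher one was Ass1 (0.50), from a probe set with a mean of 5.83 log2. Erythroid markers lay above 0 at 3 of 3 genes (median 1.34), with mean levels of 5.96 to 6.89 in HGI and 4.68 to 5.98 in LGI. Of these, 2 stood higher at an unadjusted p under 0.05, Alas2 (1.34) and Slc4a1 (2.25, adjusted p = 0.0625, no overlap). Hba-a1 was dim in both diets and stood at 0.02. Stellate cell markers had a median of 0.12 over 6 genes, or 0.02 without LGI 4. Cholangiocyte and lymphocyte markers had medians of -0.09 and 0.04, over 5 genes each, of which 2 in each list were dim in both diets. Of 4 adipocyte markers 3 were dim in both diets, and the other, Fabp4, which endothelial cells also express, stood at 1.08 (adjusted p = 0.276, unadjusted p = 0.00174). No marker passed the test. The part of cell makeup in the enzyme differences was not tested, and in whole liver fewer cells of a type and less RNA per cell cannot be told apart.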

How the data were processed

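The authors deposited 1 log2 signal for each probe set and array (Affymetrix). Per the submitters' processing notes, RMA and R 2.6.1 were used, and a genome build was not given in the sources used here. RMA brings arrays towards a shared distribution, but the deposited values still differed in spread (SD 2.16 log2 in HGI 1, 2.31 in HGI 4). Values are relative within an array, and levels of different genes were not set against each other. Of 45101 probe sets, 64 controls were left out. The other 45037 were tested with limma 3.58.1 in R 4.3.3 (lmFit, eBayes, no covariates), with Benjamini-Hochberg adjustment over all of them. Every adjusted p is limma's. Gene names came from the platform annotation (34945 probe sets with 1 symbol, 932 with several, 9160 with none), and all 47 members matched a gene ID in RefSeq (GRCm38.p6, used for names and gene order). Promoter windows came from RefSeq, for 42 members.

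Members and gene lists were chosen with earlier results of these data known. Values in every array are given for members past the threshold, those at an unadjusted p under 0.01 and, in each class, the brighter member with the largest difference, and some others are given as ranges. Related genes are named at an unadjusted p under 0.05, and 8 key ones whatever their value. The array number, 5 per diet, limits the precision. The procedure was tested on simulated data. Arrays with the same replicate number were not paired (correlations of their deviations -0.05 to 0.07). Alternatives were filters, renormalization, centring, variance models, array weights, the mean of a gene's probe sets, a replicate block and leaving out arrays.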

Additional observations from a re-analysis of the deposited data

Results flagged for a closer look

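In 4 of the 32 sets of 5 arrays examined (16 named members, each diet apart), 1 array stood far from its group. It was LGI 4 each time, as the lowest LGI value. The cutoff flags about 1 in 20 sets by chance, but the sets share the same livers. The 4 flags thus describe 1 liver and are not separate events to weigh against that rate. Gsta2 read 8.67 log2 in LGI 4, against 9.67 to 10.01 in the other LGI livers. Ugt2b36 read 12.25 against 12.61 to 12.66, Ugt2b5 read 11.55 against 11.92 to 12.02, and Sult2a8 read 10.42 against 11.09 to 11.25. The differences without LGI 4 were -1.79, -0.39, -0.48 and -0.56 in that order, each larger in size than with it.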

How the results depend on the processing

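The number of members past the threshold was 1 and moved to 3 when only probe sets averaging 6 log2 or more were tested, with quantile normalization again, with array weights, and without HGI 1 and LGI 4 together, which was added after seeing the data. It was 2 with the replicate block, and 0 to 2 when single arrays were left out. The further genes were Gstm3 and Gstt2 under the first 3 of these settings, Gsta4 and Gstm3 without both arrays, and Gstm3 under the block, which changed no other member's call; 0 of 10 arrays correlated best with their own number across diets. The calls over all probe sets tested moved too. They numbered 29 in the main fit and 38, 63, 64 and 58 in the settings with 3 members, in the order given. Without HGI 5, LGI 2, LGI 3 or LGI 5, where 0 members passed, they numbered 7, 5, 5 and 5. Leaving out single arrays gave 13 to 29 members at an unadjusted p under 0.05. The share of all genes at that p was not taken for those fits. The medians of the families and of all 47 genes kept their sign and moved by less than 1 SD between arrays under every alternative run. That SD was 0.16 for all 47 genes, 0.17 for Gst, 0.20 for Ugt and 0.15 for Sult. It is a wide limit for Sult, whose median of -0.07 was -0.16 with the filter at the median signal and -0.04 without HGI 1. With quantile normalization again, the median of genes averaging 6 log2 or more moved from -0.04 to -0.01. The family medians were then -0.20 for Gst, -0.30 for Ugt and -0.04 for Sult. Dim probe sets and 5 mice per diet limit what can be detected.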

Other observations

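The 5 genes outside these families whose signal followed that of Gsta2 most closely within the diets were Sap30, Znrf2, Ids, Rbp4 and Gamt. After each diet's mean was removed, their Pearson r with Gsta2 over the 10 arrays was 0.98, 0.97, 0.96, 0.96 and 0.95, and 0.92, 0.94, 0.86, 0.86 and 0.81 without LGI 4. They were picked as the highest of all genes and share the arrays, so the values only describe these livers. Their differences between diets were -0.02, 0.10, 0.21, -0.08 and 0.49 log2, none past the threshold.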
